A study of Caenorhabditis elegans with 2 samples.

Results

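The peaks described here are the autosomal binding sites of the worm homeodomain protein DSC-1 that lie in intergenic sequence far from any gene start. They were chosen by position alone. A peak of the reproducible list was kept when its summit, the single base of strongest enrichment, lay on an autosome, outside every protein-coding gene body and more than 2500 bp from the nearest protein-coding gene start. Summits within 500 bp of a tRNA gene start were left out. Of 3044 autosomal summits outside protein-coding genes, 704 lay beyond the distance limit, 14 of these were near a tRNA gene, and 690 remained. They make up 10.98% of the 6283 reproducible peaks and 14.3% of the 4820 autosomal ones, and are called far autosomal peaks below.

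The material was whole hermaphrodite L1 larvae of Caenorhabditis elegans strain OP522, which carries unc-119(tm4063) on chromosome III and the transgene insertion wgIs522. The transgene expresses DSC-1 with a GFP-FLAG tag at its C-terminal end, and chromatin was fragmented by sonication and precipitated with an antibody to GFP. Larvae hatched without food after bleaching, which holds them at the first larval stage, and were collected 6 h after synchronization. There were 2 biological replicates and 1 group, with no second genotype, stage or treatment. The peaks report where the tagged protein from the transgene was recovered, summed over all cells of the animal, so occupancy in few cells and weak occupancy in many cannot be told apart. The control library was not analysed here, and read depth is not known from peak lists.

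DSC-1 has a homeodomain of the paired-like class and is known from the genetics of the defecation motor program, the repeated cycle of muscle contractions by which the worm empties its gut. It is needed there for the enteric muscles to express EXP-1, a receptor channel opened by GABA. Homeodomain proteins generally bind short AT-rich words built on TAAT, and paired-type proteins can bind palindromes of TAAT and ATTA as pairs. A subset, the bicoid or K50 type, prefers TAATCC, and Otx-type proteins such as worm CEH-36 and TTX-1 belong to it. Most worm genes are controlled from sequence close to their start, and long intergenic regions with distant regulatory elements are more common next to developmental and neuronal genes.

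The sequences of the far autosomal peaks that are discussed most are given first. Each is the summit base with 50 bp on either side, on the top strand, in build WBcel235 (ce11), read from the reference genome. The first set holds the strongest 6 peaks, among those whose sequence could be shown, with the K50 word TAATCC in this window. Capitals mark the word, which appears as GGATTA where it lies on the other strand. Each is named after the gene with the nearest start.
C30G12.2 peak, chrII:7283214-7283314: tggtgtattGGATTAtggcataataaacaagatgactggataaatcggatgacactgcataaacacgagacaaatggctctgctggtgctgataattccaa
T10H9.1 peak, chrV:6645948-6646048: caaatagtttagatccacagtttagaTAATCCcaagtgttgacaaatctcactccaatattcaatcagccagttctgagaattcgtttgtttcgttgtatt
kcmf-1 peak, chrIII:7832586-7832686: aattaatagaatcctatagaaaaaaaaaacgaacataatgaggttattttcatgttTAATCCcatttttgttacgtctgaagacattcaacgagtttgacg
F35B12.10 peak, chrV:11625104-11625204: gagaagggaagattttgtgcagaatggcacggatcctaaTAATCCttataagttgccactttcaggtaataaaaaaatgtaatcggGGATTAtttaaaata
C15H7.4 peak, chrIII:9658713-9658813: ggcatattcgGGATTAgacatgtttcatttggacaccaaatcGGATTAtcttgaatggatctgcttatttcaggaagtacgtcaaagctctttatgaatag
cdh-7 peak, chrII:14832205-14832305: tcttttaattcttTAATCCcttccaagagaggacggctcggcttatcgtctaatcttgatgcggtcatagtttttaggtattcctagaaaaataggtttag

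A second set shows the other sequence types. The Y46E12A.3 peak had the most copies of the K50 word, the T04C4.3 and Y105C5A.1 peaks were the strongest shown with the GAGA repeat word GAGAGAG, marked in capitals on either strand. The cmd-1 peak was the strongest of all 690 and held neither word.
Y46E12A.3 peak, chrIII:1744825-1744925: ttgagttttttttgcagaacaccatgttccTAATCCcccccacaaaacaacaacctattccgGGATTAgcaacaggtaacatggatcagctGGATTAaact
T04C4.3 peak, chrIV:2219593-2219693: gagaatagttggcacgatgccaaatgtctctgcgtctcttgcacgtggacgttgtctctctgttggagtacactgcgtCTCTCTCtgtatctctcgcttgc
Y105C5A.1 peak, chrIV:15570912-15571012: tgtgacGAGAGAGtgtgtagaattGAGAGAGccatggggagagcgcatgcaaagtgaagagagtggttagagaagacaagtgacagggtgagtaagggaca
cmd-1 peak, chrV:1151447-1151547: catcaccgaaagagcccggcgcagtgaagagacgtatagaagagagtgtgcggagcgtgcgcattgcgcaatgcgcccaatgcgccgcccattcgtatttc

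Peaks were compared by their rank in the authors' signal, with rank 1 the strongest in a list, because the scale of the signal is not stated. The far autosomal peaks spanned nearly the whole reproducible list, with a best rank of 18, a median of 3174.5 and a worst of 6268. Their median was 3299 in the list of replicate 1 and 3148 in that of replicate 2. For comparison, the 295 peaks that meet the same rule on X had a median rank of 3142, the 624 autosomal intergenic peaks more than 1000 and up to 2500 bp from a start 3375.5, and the 1683 within 1000 bp of a start 2719. Strong, moderate and weak peaks were thus all found far from starts, and 343 of them lay in its stronger 50%. The strongest 100 peaks of the list included 8 of them, 1.16% of the far autosomal peaks (95% exact binomial interval 0.502% to 2.27%), against 1.59% of all peaks. The strongest 500 included 42, or 6.09% (4.42% to 8.14%), against 7.96% of all peaks. Both intervals include the share of all peaks. Of autosomal peaks within 1000 bp of a start, 11.65% (10.2% to 13.3%) were among the strongest 500, an interval above that of the far autosomal peaks. The shares of far X peaks, 9.49% (6.40% to 13.4%), and of the middle-distance autosomal peaks, 5.45% (3.80% to 7.53%), had intervals that overlap it. The stronger 50% held 57.1% (54.7% to 59.5%) of peaks within 1000 bp and 49.7% (45.9% to 53.5%) of far autosomal peaks. These differences were not tested.

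The full replicate lists hold weak peaks and background too, and the reproducible list was built from them, so overlap with them is a description only. All but 3 far autosomal peaks overlapped a peak in both. The exceptions were a peak nearest to the cuticle collagen gene dpy-10, with no counterpart in replicate 1, and peaks nearest to Y43E12A.2 and to hmr-1, the gene for the worm's classical cadherin, with none in replicate 2. The overlapping peak with the nearest summit lay past rank 10000 for 19 members in replicate 1 and for 5 in replicate 2. Against the 6283 strongest peaks of each replicate, as many as the reproducible list holds, 89.4% (95% exact binomial interval 86.9% to 91.6%) were overlapped in replicate 1 and 94.1% (92.0% to 95.7%) in replicate 2. The same shares over the whole reproducible list were 90.4% and 92.2%. Across the 687 peaks found in both lists, ranks correlated with a Spearman rho of 0.832, a description only, since the reproducible list was built from these replicates. The median distance between the replicates' summits was 25 bp, and in 23.9% of far autosomal peaks it was over 50 bp, against 19.5% of all reproducible peaks. The sequence windows were centred on the summit of the reproducible list.

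**Figure D1:**
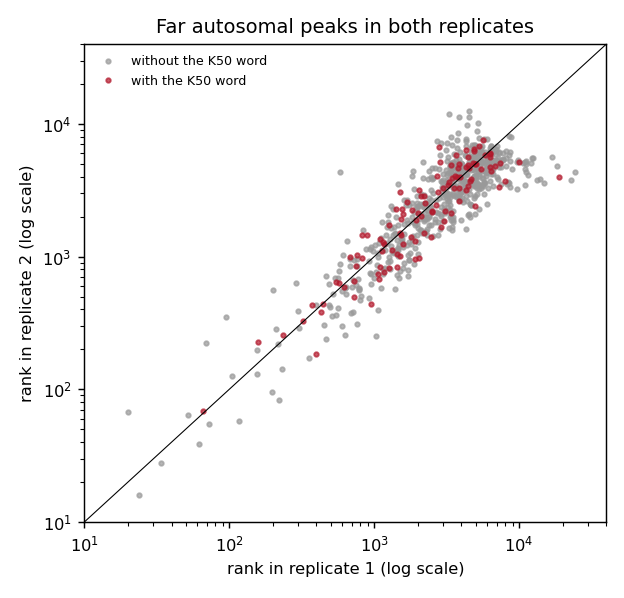
Rank of each far autosomal peak in replicate 2 (vertical, log scale) against its rank in replicate 1 (horizontal, log scale), 687 peaks found in both lists. Each point is 1 peak, red with the K50 word at the summit and grey without it, and the line marks equal ranks. Points follow the line, with the widest scatter among weak peaks.

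The strongest member, rank 18 in the reproducible list, 24 in replicate 1 and 16 in replicate 2, lay 4774 bp upstream of cmd-1, the worm's calmodulin gene. It is intergenic at chrV:1151263-1151728. A second far peak of rank 847 (949 in replicate 1 and 742 in replicate 2) lay 6311 bp upstream of the same start. Calmodulin is the general calcium sensor of the cell, and both replicates placed the first of its far peaks among their 25 strongest peaks.

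The next members, in order of signal, were nearest to genes of several kinds. The peak nearest to lec-3, which encodes a galectin, had rank 29 (34 in replicate 1 and 28 in replicate 2) and lay 4039 bp upstream. A peak of rank 41 lay 2631 bp upstream of F58D12.3, and its ranks of 20 in replicate 1 and 68 in replicate 2 differed more than those of its neighbours in the list. The acr-15 gene, for an acetylcholine receptor subunit, had a peak of rank 45 (62 in replicate 1 and 39 in replicate 2), 3460 bp from its start and past its 3′ end. All 3 of these peaks were among the strongest 100 in both replicates.

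A member of rank 56 lay past the 3′ end of nlp-40, 5519 bp from its start, with rank 52 in replicate 1 and 64 in replicate 2. NLP-40 is a neuropeptide-like protein that the intestine secretes to trigger the expulsion step of the defecation motor program, the program for which DSC-1 is known. The summit lay just beyond the annotated end of the gene. The homeobox gene ceh-23, expressed in a small set of neurons, had a peak of rank 62 (72 in replicate 1 and 55 in replicate 2) located 4556 bp upstream, plus further far peaks of rank 440 and 5857. The summit sequence of the rank 440 peak held TAATCC.

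The other members among the strongest 25 were nearest to C30G12.2 (rank 69), T22C1.6 (75), T04C4.3 (104), F07D3.3 (105), slc-17.7 (120), Y105C5A.1 (134), Y67D8B.1 (142), egl-18 (158), C06G4.6 (170), T10H9.1 (193), T28C12.6 (221), F16B3.2 (233), F07H5.13 (245), ztf-6 (251), kcmf-1 (253), sue-1 (289), F35B12.10 (311) and F09E5.14 (316), and to H12I13.1, whose peak ranked 95 in replicate 1 and 350 in replicate 2. Of these, egl-18 encodes a GATA factor of the epidermal seam cells, slc-17.7 a solute carrier and ztf-6 a zinc finger protein. The egl-18 peak lay 7069 bp upstream, with rank 231 in replicate 1 and 143 in replicate 2. Among the strongest 25, the weakest rank reached in either replicate was 467 in replicate 1 and 350 in replicate 2. The K50 word stood in 5 of these 25 summit windows.

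The far peaks were spread over all 5 autosomes, and their number was read against the eligible sequence, all autosomal bases that meet the same rule. There were 65.7 summits per Mb over 10.5 Mb (95% Poisson interval 60.9 to 70.8). Far sequence on X held 90.8 per Mb (80.7 to 102), autosomal sequence more than 1000 and up to 2500 bp from a start 74.5 (68.8 to 80.6), autosomal intergenic sequence within 1000 bp of a start 159 (152 to 167) and autosomal gene bodies 33.5 (32.0 to 35.1). Far autosomal sequence was thus less densely bound than far sequence on X and than sequence next to starts, and more densely than gene bodies, in each case with intervals that do not overlap. Among the autosomes the values ran up to 75.5 per Mb on III (62.8 to 90.1), and the lowest was 53.8 per Mb on IV (45.9 to 62.6).

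Position along the chromosome went with a larger difference. Worm autosomes have gene-dense, well conserved centres and arms that are richer in repeats and in quickly evolving gene families. The middle 50% of each autosome by length, in which 444 of the far summits lay, held 96.6 per Mb (87.9 to 106), against 41.7 per Mb (36.6 to 47.2) in the arms on both sides. The centre was higher on each of the 5 chromosomes: 112.4 against 29.7 per Mb on V, and 84.6 (65.3 to 108) against 67.4 (51.2 to 87.2) on III, where the intervals overlap. The same held for sequence within 1000 bp of a start, at 194 per Mb in the centres and 120 in the arms, so a denser centre is not a property of the far peaks alone.

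Density was also lower at greater distance and differed with the direction of the neighbouring genes. It was 72.96 per Mb (64.1 to 82.7) over 2500 to 3500 bp from a start, 72.3 over 3500 to 5000 bp, 65.4 over 5000 to 7500 bp, 52.1 over 7500 to 10000 bp and 27.5 (17.2 to 41.6) beyond. The farthest summit was 28665 bp from a start, and the median distance 4110.5 bp. Sequence on the upstream side of the nearest start, which held 522 members or 75.7%, had 81.1 per Mb (74.3 to 88.3), against 41.4 (35.4 to 48.2) past the gene with the nearest start. Between divergent genes, whose starts both face the intergenic stretch, the density was 82.2 per Mb (72.1 to 93.4), between tandem genes 72.6 (65.7 to 80.0) and between convergent genes, whose ends face it, 23.3 (17.1 to 31.0). Far summits were therefore found mainly in stretches that at least 1 gene start faces, although each lay beyond the distance limit.

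**Figure D2:**
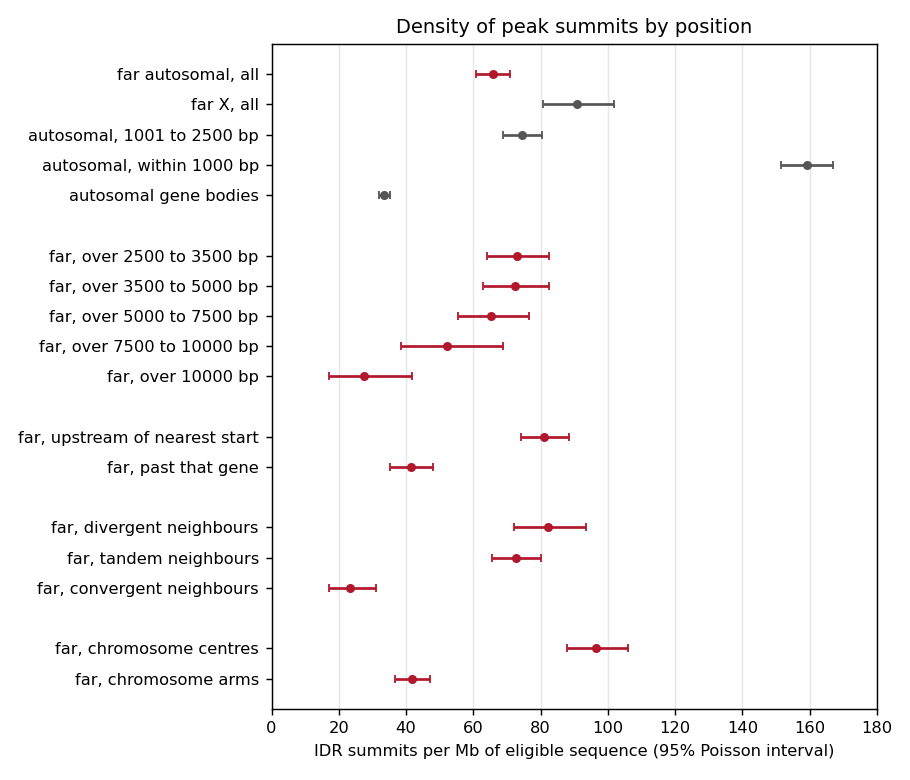
Reproducible summits per Mb of sequence (horizontal, points) with 95% Poisson intervals (bars), for the far autosomal peaks as a whole and split by distance, side, neighbouring genes and chromosome position (red), and for other sequence classes (grey). The red points fall with distance, to 27.5 per Mb beyond 10000 bp, and are lowest between convergent genes and in the arms within their own splits.

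The distance limit fell within a continuous range of values. The 133 members up to 500 bp beyond the limit had a median rank of 3184 and the K50 word in 15.04% of summit windows. The 169 autosomal intergenic peaks up to 500 bp inside it had a median rank of 3202 and the word in 10.7%.

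Many members shared an intergenic stretch with another. Of 2999 stretches with eligible sequence, 422 (14.1%) held a member, and 690 members could in any case reach only a minority. The 149 stretches with 2 or more held 417 members (60.4%), and 63 stretches held 3 or more. Another reproducible summit lay within 1000 bp of 28.0% of members, and the median distance to the next summit was 1734 bp. Longer stretches offer more room, and whether members lay closer together than evenly placed summits was not tested. The intervals of 64 members overlapped that of another member, and merging such peaks left 657 regions, so neighbouring peaks can share fragments and a replicate's peak.

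The fullest stretches held 7 members each. One was the 18.6 kb between snt-1, the synaptotagmin gene, and egl-27, which encodes a nuclear protein related to a subunit of a histone deacetylase complex, on chromosome II from 6816434 to 6835007. In it 6 members were nearest to the egl-27 start, from 3152 to 11597 bp upstream. The strongest had rank 505 (691 in replicate 1 and 378 in replicate 2) and the weakest rank 5807 (3299 in replicate 1 and 11891 in replicate 2). The remaining one was nearest to snt-1, rank 6114, past that gene's end.

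The other was the 11.5 kb between H10E21.5 and clp-10, a calpain gene, close to the left end of chromosome III, and all of its 7 members were nearest to H10E21.5, from 2792 to 6633 bp upstream. Their ranks ran from 1162 to 6247. The K50 word stood in 3 of those 7 summit windows. Both stretches therefore mixed strong, moderate and weak peaks.

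Counted by gene, 496 of 17242 autosomal protein-coding genes (2.88%) were the nearest start of a far peak, 367 of them of only 1. After H10E21.5 and egl-27, the genes with most were slc-17.7, K11H12.9 and W04D12.1 with 5 each. A further 12 genes had 4 each, of which those with the strongest peaks were C30G12.2, tol-1, F53C3.1, R06C1.6 and F32D8.1. TOL-1 is the worm's Toll-like receptor, and its members had ranks between 411 and 5118 at 5784 to 9300 bp from its start. The 5 members upstream of slc-17.7 lay 4178 to 7847 bp from its start and none had the K50 word. The C30G12.2 members reached 10781 bp from the start, and the strongest, rank 69 (66 in replicate 1 and 69 in replicate 2), is the first sequence shown above. The nearest start is a matter of position and does not show which gene, if any, a peak acts on.

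The sequence at the summits was compared with that beside the same peaks. For each of 24 words of known factor classes, presence within 50 bp of the summit was set against equally wide windows 300 bp away on the left and on the right, with both strands read and an exact two-sided McNemar test. A word was called when the Benjamini-Hochberg adjusted p, over all words and both sides, was under 0.05 on both sides in the same direction. Of the 24 words, 4 (16.7%) were called higher and 2 (8.33%) lower at far autosomal summits. The 690 regions are not replicates, so these p-values describe this 1 list of peaks.

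The homeodomain word with the largest difference was the K50 word TAATCC. It stood in 113 far autosomal summit windows, 16.4% (95% exact binomial interval 13.7% to 19.4%), against 4.49% of left and 4.20% of right windows, with an adjusted exact McNemar p of 4.48e-12 for the weaker side. Over all 101050 windows of this width tiled across the eligible sequence, the share was 3.51%. When peaks were taken from 1 replicate's list alone, the share was 17.4% for replicate 1 and 16.1% for replicate 2, and the word was called in both. The word is a description of the sequence and does not show which protein was in contact with it.

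The share with TAATCC was not the same in all classes of peaks. At far summits on X the share was 15.6% (11.6% to 20.2%), which the autosomal interval overlaps. At autosomal summits more than 1000 and up to 2500 bp from a start it was 9.94% (7.70% to 12.56%), and within 1000 bp 5.47% (4.43% to 6.66%). Within 1000 bp, left and right windows held 3.92% and 3.45%, with adjusted exact McNemar p of 0.0676 and 0.0113. The word was therefore not called there. The interval of the far autosomal peaks lies above those of both nearer autosomal classes, but the difference between classes was not tested. Mean GC content at the summit also differed, at 40.2% in far autosomal peaks, 41.6% in the middle-distance autosomal peaks and 44.2% within 1000 bp. The share with the word varied with GC content, as given below, and its part in the difference between classes was not tested. Within the far autosomal peaks the share was 14.6% over 2500 to 3500 bp, 17.1% to 5000 bp, 21.3% to 7500 bp and 9.86% (4.06% to 19.3%) beyond, with overlapping intervals. By chromosome it ran between 13.3% on IV and 22.95% on II, again with overlapping intervals.

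Matches were spread over about 100 bp on each side of the summit. In bins of 20 bp, the word was found between 2.46 and 4.35 times per 100 far autosomal peaks within 100 bp of the summit. More than 200 bp away the bins held between 0.290 and 1.304 per 100 peaks. A total of 12 members held more than 1 match, and the Y46E12A.3 peak, rank 4934 (3661 in replicate 1 and 5783 in replicate 2) and 10067 bp from the start, held 3. The base before the word, read as TAATCC, was C in 38.1% of the 126 matches in summit windows, against 18.2% of 33 in left windows and 24.1% of 29 in right windows. At autosomal peaks within 1000 bp of a start it was also C more often at summits, in 31% of 100 matches. There the left windows had 11.3% of 71 and the right windows 11.9% of 59. The flank counts are small, and the difference was not tested.

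**Figure D3:**
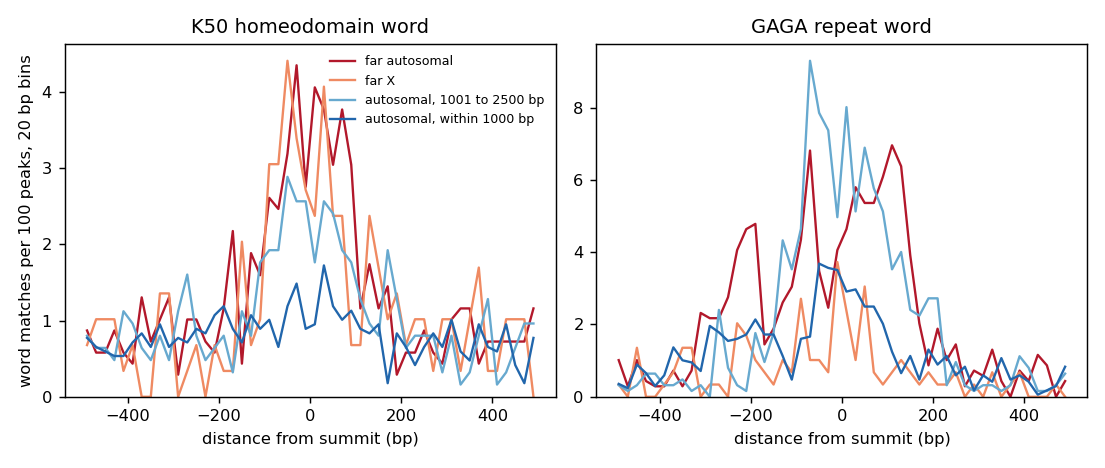
Matches per 100 peaks in bins of 20 bp (vertical) by distance from the summit in bp (horizontal), for the K50 homeodomain word (left) and the GAGA repeat word (right), with 1 line per class of peaks. The K50 word rises at the summit in far autosomal, far X and middle-distance autosomal peaks. In peaks within 1000 bp of a start it rises less, to at most 1.72 matches per 100 peaks. The GAGA repeat word is higher near the summit than 400 bp away in each class and was not called at far X summits.

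Far peaks with the K50 word were stronger by median. Their median rank was 2374 in the reproducible list, 2240 in replicate 1 and 2292 in replicate 2. For far peaks without it the medians were 3282 in the reproducible list, 3411 in replicate 1 and 3293 in replicate 2. With the far peaks cut into 4 groups of nearly equal size by signal, the share with the word was 23.1% (17.1% to 30.1%) in the strongest group, 16.8% in the second, 12.8% in the third and 12.8% (8.19% to 18.7%) in the weakest. Among peaks within 1000 bp of a start the 4 groups lay between 4.28% and 6.65%, with the lowest share in the strongest group. The intervals of the strongest and the weakest group of far autosomal peaks overlap, and ranks within a list were not tested. On X the order was different, with 12.2% in the strongest group and 20.3% in the third.

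**Figure D4:**
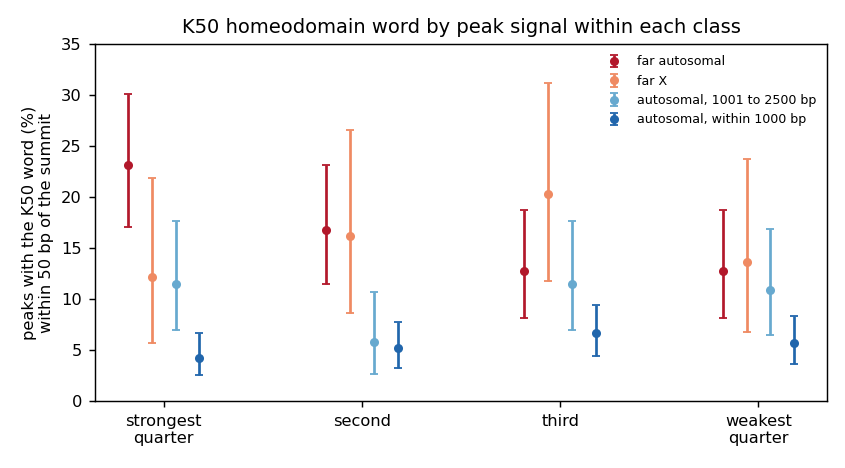
Share of peaks with the K50 homeodomain word within 50 bp of the summit (vertical, %, points) by signal group within each class (horizontal), with 95% exact binomial intervals (bars). In far autosomal peaks the share is 23.1% in the strongest group and 12.8% in the weakest, and in peaks within 1000 bp of a start it is at most 6.65%.

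Base composition moved with these differences. Far autosomal summit windows had a mean GC content of 40.2% ± 8.14 (SD, n = 690 peaks), against 33.7% in left and 33.4% in right windows and 34.5% in eligible sequence. Split by GC content, the share with TAATCC was 18.3% against 2.67% of eligible windows under 30% GC, 23.8% against 3.57% between 30% and 35%, and 28.1% against 4.34% between 35% and 40%. It was 9.09% against 4.01% between 40% and 45%, and 5.76% (2.91% to 10.1%) against 3.85% above 45%. The interval lies above the share of eligible windows in each band up to 45% GC, and includes it above 45%.

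The other 3 words called higher were 2 E-boxes and a repeat word. CATCTG, an E-box of the kind that basic helix-loop-helix proteins bind, stood in 11.6% of summit windows, against 3.48% of left and 1.88% of right windows (adjusted exact McNemar p of 1.27e-07) and 3.36% of eligible windows. GAGAGAG stood in 10.1%, against 1.45% and 2.32% (adjusted exact p of 6.16e-09) and 1.70% of eligible windows. A further E-box, CACGTG, was at 4.78%, against 1.88% and 1.74% (adjusted exact p of 0.0119) and 1.34% of eligible windows. All 3 were also called at autosomal peaks within 1000 bp of a start, where CATCTG stood in 6.65%, GAGAGAG in 9.45% and CACGTG in 3.21% of summit windows. At far X summits GAGAGAG was at 5.08%, against 1.36% and 0.678%, and was not called (adjusted exact p of 0.0922). CACGTG was not called there either, at 3.05% against 2.37% and 1.69%, while CATCTG was called, at 11.9%. At middle-distance autosomal summits CATCTG (12.8%) and GAGAGAG (13.3%) were called, and CACGTG (4.17%) was not. GAGAGAG was unlike the K50 word in composition: it stood in 21.5% of members above 45% GC and in 2.10% of those between 30% and 35%. CACGTG lost its call among the stronger 50% of peaks and with windows narrowed to 61 bp, and CATCTG beyond 5000 bp.

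Both words called lower were T-rich, and summit windows had a higher mean GC content (40.2%) than left (33.7%) and right (33.4%) windows. The part of base composition in these calls was not tested. TTTTTTTT stood in 7.25% of summit windows, against 13.2% and 14.8%, and TTTTCAG, the consensus before a worm 3′ splice site, in 4.78%, against 8.84% and 9.86%, with adjusted exact McNemar p of 0.0023 and 0.0119. TTTTCAG was no longer called with peaks from replicate 1 alone (5.29%) or replicate 2 alone (5.18%). The general homeodomain words were not called. TAATTA was at 4.06%, against 5.51% and 5.80% (adjusted exact p of 0.495), and TAATTG at 7.25%, against 9.28% on each side (adjusted exact p of 0.431). Palindromes of TAAT and ATTA with 2 bases between them were found at 2 summits, against 4 left and 3 right windows, and those with 3 bases between them at 5, against 2 and 2. Neither was called (adjusted exact p of 1 and 0.725). The general homeodomain words and the palindromes are AT-rich and were not compared at like GC content. Their shares therefore cannot be told apart from the lower AT content of summit windows. No match in these windows says only that those letters are not there.

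The same test over all words of 6 letters, with each word merged with its reverse complement, called 99 higher (4.76%) and 74 lower (3.56%) at far autosomal summits. The leading ones were GAGAGA at 24.5%, against 5.94% and 5.80%, AGAGAG in 131 of the 690 windows, and then TAATCC, which had the third smallest adjusted p among words called higher. GA-repeat and GC-rich words such as CTCTCG at 9.71% and CGTCTC at 11.4% followed. Of the 99 words, 58 were also called higher at the middle-distance autosomal peaks. At autosomal peaks within 1000 bp of a start, 65 were also called higher and 34 were not. The totals called higher in those classes are not given here, so neither count was read as a large or a small overlap. The 34 were led by TAATCC, which was called higher at middle-distance autosomal and far X summits too. Words that overlap it in letters were found on both sides of this split. CTAATC, at 13.0%, against 3.19% and 4.64%, was also called within 1000 bp of a start. Not called there were TAATCT at 13.2%, against 5.65% and 5.36%, and TTAATC at 11.7%, against 5.22% and 4.93%, and likewise GCTTCT, which does not overlap TAATCC, at 10.6%, against 3.62% and 4.06%. Of the 74 words called lower, 57 had at most 1 G or C, and the first by adjusted p was AAAATT at 18.4%, against 45.7% and 48.3%.

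Some members lay next to non-coding genes, which the rule did not exclude apart from tRNA genes. Small nucleolar RNA genes, whose products guide chemical modification of other RNAs, had a start within 500 bp of 17 members, 2.46% (1.44% to 3.92%), against 0.330% of eligible bases. The strongest lay 89 bp upstream of Y47D3B.25, rank 463 (498 in replicate 1 and 417 in replicate 2), and the next was the peak at K07C10.2, rank 655 (715 in replicate 1 and 665 in replicate 2). Genes annotated as ncRNA had a start within 500 bp of 83 members, 12.03% (9.70% to 14.7%), against 6.46% of eligible bases. In both cases the interval lies above the share of sequence.

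MicroRNA genes had a start within 500 bp of 5 members, 0.725% (0.236% to 1.68%), against 0.398% of eligible bases. They were mir-8209, with peaks of rank 903 and 2194, mir-1820, with 1 of rank 1017, and mir-52, with peaks of rank 1174 and 2880. Both mir-8209 summits lay in the same called interval, as did both mir-52 summits, and the binomial interval counts each summit separately. The stronger mir-52 peak ranked 1878 in replicate 1 and 880 in replicate 2 and lay 155 bp upstream of that gene, a member of the abundant mir-51 family. Long intergenic RNA genes were near 3 members, 0.435% (0.0898% to 1.27%), against 0.490% of eligible bases: Y41C4A.17 (rank 1008), linc-156 (1965) and linc-158 (5116). Both intervals include the share of sequence. The piRNA genes, which are very numerous in clusters on chromosome IV, had a start near 54 members, 7.83% (5.93% to 10.1%), against 13.1% of eligible bases, and pseudogenes near 13, 1.88% (1.01% to 3.20%), against 5.65%, both below the share of sequence. No member lay within 500 bp of an rRNA, snRNA or antisense RNA gene start, and an exact interval from 0 of 690 reaches 0.533%. The shares of eligible bases near such starts were 0.165%, 0.178% and 0.0502%, each inside that interval.

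Groups of genes were then described by how many of their members were the nearest start of a far peak, beside 2.88% over all autosomal protein-coding genes. Because genes with long upstream regions offer more room, far peaks per Mb of eligible sequence belonging to those genes were also set beside the 65.7 over all genes. A peak at a gene means here that the gene has the nearest start, and the peak can lie upstream of it or past the gene. The lists were chosen with earlier results known, and no list was tested.

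The calcium and calmodulin signalling list had the most far peaks for its sequence: 6 of 33 genes and 12 far peaks, or 280 per Mb (95% Poisson interval 145 to 488). After cmd-1, the strongest were the peak upstream of tax-6, the calcineurin A gene, with rank 970 (761 in replicate 1 and 966 in replicate 2), and that upstream of cal-1, which encodes a calmodulin-like protein, with rank 1254 (1079 in replicate 1 and 1273 in replicate 2). The tax-6 gene had 4 far peaks within 6741 bp of its start. Further far peaks lay upstream of sca-1, the gene for the calcium pump of the sarcoplasmic reticulum, of cal-4 and of egl-10, which regulates G protein signalling. All 12 lay on the upstream side and none had the K50 word. They belong to 6 genes, and the Poisson interval treats as separate the peaks that share an intergenic region, such as the 4 upstream of tax-6.

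The densities of the transcription factor lists were not told apart from the 65.7 per Mb over all genes. Homeobox genes had 10 far peaks at 5 of 71 genes, 61.2 per Mb (29.4 to 113). Besides ceh-23, the strongest were nearest to ceh-58 with rank 1078 (1432 in replicate 1 and 842 in replicate 2) and to lim-7, a LIM homeobox gene, with rank 3132. Among 6 Hox genes lin-39 had the only far peak, of rank 5263 and 7797 bp upstream, or 24.5 per Mb (0.620 to 136) for the list. Nuclear hormone receptor genes had 20 far peaks at 13 of 247 genes, 90.5 per Mb (55.3 to 140), led by nhr-6, the worm NR4A-type receptor (rank 509), nhr-43 (627) and nhr-138 (652). The list of basic helix-loop-helix, GATA, Sox, forkhead and T-box factors had 13 at 8 of 60 genes, 94.6 per Mb (50.4 to 162), led by egl-18, egl-27 and tbx-33 (rank 1008). The intervals of these 4 lists include 65.7.

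Genes of signalling, adhesion and excitable cells were also near that value or carried few peaks. Neuropeptide genes had 10 far peaks at 8 of 72 genes, 86.4 per Mb (41.5 to 159), with nlp-40, nlp-51 (rank 1286) and flp-6 (1905) first. Ion channel genes had 10 at 7 of 147, 66.6 per Mb (31.9 to 122), led by acr-15, the Shal potassium channel gene shl-1 (1235) and lgc-56 (1242). Axon guidance and adhesion genes had 8 at 6 of 51, 73.3 per Mb (31.6 to 144), led by the cadherin gene cdh-7 (404), the ephrin gene vab-2 (938) and the L1CAM-type gene lad-2 (1297). These lists, like the factor lists, had a larger share of genes with a far peak than the 2.88% of all genes, and densities that did not differ beyond their intervals.

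**Figure D5:**
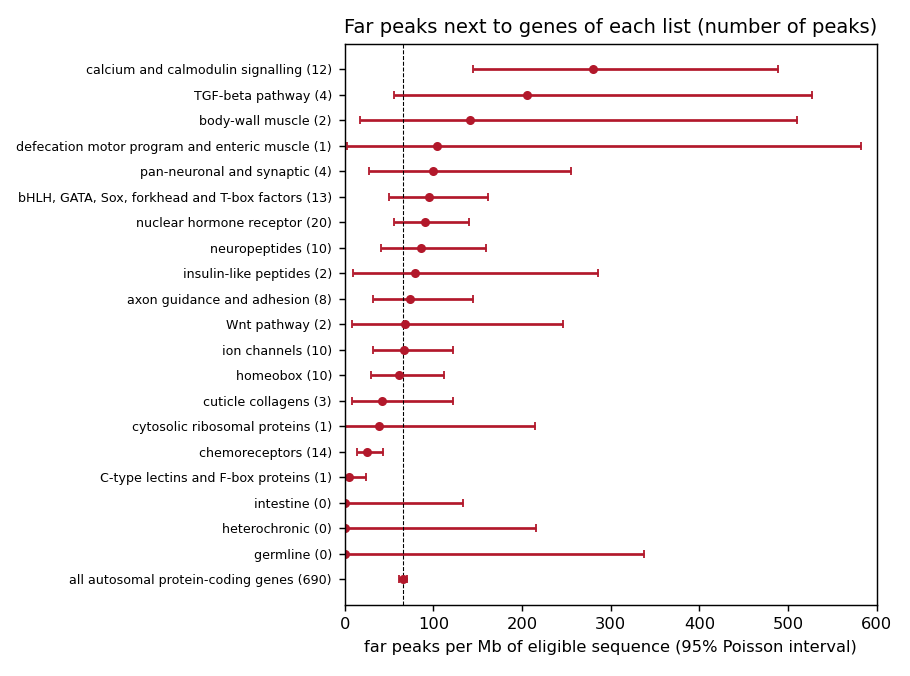
Far autosomal peaks per Mb of eligible sequence nearest to genes of each list (horizontal, points) with 95% Poisson intervals (bars) and the number of peaks in brackets; the Hox and histone lists are not drawn. The dashed line marks 65.7 per Mb over all autosomal protein-coding genes, above which only the calcium and calmodulin list and below which only the chemoreceptor list and the list of C-type lectins and F-box proteins lie with their whole interval.

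Smaller lists had wide intervals. The TGF-beta list had 4 far peaks at 3 of 18 genes, 206 per Mb (56.0 to 527): the BMP-type ligand gene dbl-1 with rank 984 (878 in replicate 1 and 1144 in replicate 2), the receptor gene daf-4 with rank 2483 and the ligand gene tig-3 with ranks 3001 and 5165. Wnt pathway genes had 2, at sfrp-1 (rank 1323) and lit-1 (5690). Insulin-like peptide genes had 2, at ins-2 (4253) and daf-28 (5024). Body-wall muscle genes had 2, at the actin gene act-1 (1308) and the integrin gene pat-2 (3642), and pan-neuronal genes 4, led by the synaptobrevin gene snb-1 (1804), ida-1 (2377) and snt-1. Cuticle collagen genes had 3, at col-61 (1063), col-99 (1104) and dpy-10, and cytosolic ribosomal protein genes 1, at rpl-21 (4768). The peaks at sfrp-1, act-1, snt-1, col-61, dpy-10 and rpl-21 lay past the gene, and the others named for these lists lay upstream. In the reproducible list the interval of each of these lists includes the value for all genes. With the peaks of either replicate alone, the TGF-beta list had 5 far peaks and 257 per Mb (83.5 to 600), wholly above the 64.8 per Mb of replicate 1 and the 66.2 per Mb of replicate 2 over all genes.

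The defecation and enteric muscle list, the one closest to the known role of DSC-1, had a far peak at 1 of 29 genes, the nlp-40 peak. Lists of intestinal genes (43), histones (75), heterochronic genes (11) and germline genes (41) had none. For the histone list only 0.00409 Mb of sequence was eligible, and for the intestinal list 0.0276 Mb, where an interval from 0 peaks reaches 134 per Mb. An absence of far peaks at these lists is thus within what so little sequence can show.

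The 2 lists below the value for all genes were large families that lie mainly in the chromosome arms. Chemoreceptor genes, which encode the worm's many putative odorant receptors, had 14 far peaks at 13 of 1277 genes, 25.5 per Mb (13.9 to 42.8), led by srw-60 (rank 327), srx-41 (601) and srw-62 (1042). The list of C-type lectin and F-box protein genes had 1 at 542 genes, clec-135 with rank 5330, or 4.39 per Mb (0.111 to 24.5). It had 0 far peaks with replicate 1 alone and 2 with replicate 2 alone. The lower density of all far sequence in the arms, 41.7 per Mb, stands beside these values, and its part in them was not tested.

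Transgenes of this kind carry a copy of unc-119 that rescues the mutation, and reads from such a copy map to the native gene on chromosome III. Of the 4 reproducible summits within 20 kb of the native gene none was a far peak, and the strongest had rank 1147.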

How the data were processed

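Chromatin from whole L1 larvae was precipitated in 2 biological replicates, and the authors deposited peak lists per replicate, for the pooled replicates and after thresholding by reproducibility between replicates (IDR), per the deposited file notes. Of the 6283 peaks of this last list, 6213 matched the strongest pooled peaks. No overlapping peak was found for 19 of them in replicate 1 and for 32 in replicate 2. The name reproducible list therefore does not mean that each peak was found in both replicates. Which aligner, peak caller and IDR cutoff were used is not stated in the labels or files at hand, and depth is unknown. Of 8 deposited lists the 4 on ce11 were used, and those on the older build were not. The signal of each peak is the authors' own, of no stated scale, and was used only to rank peaks within a list. The −log10 q-value, as deposited, reaches a ceiling and was not used. The summit offset was taken as deposited. Genes came from Ensembl release 115 for WBcel235, the same assembly as ce11, and sequence from the NCBI copy.

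Replicate ranks are those of the overlapping replicate peak with the nearest summit. Eligible sequence was every base that meets the rule. Shares have exact Clopper-Pearson and densities exact Poisson 95% intervals, which cover counting error only. Words were tested with exact McNemar tests and Benjamini-Hochberg adjustment, in a procedure tested on simulated data. The simulated summit and flank windows had the same base composition, unlike those of the peaks. The simulation therefore does not show how the procedure behaves where GC content differs between summit and flanks. Python 3.11.15, numpy 2.4.6, scipy 1.17.1 and pandas 2.3.3 were used. Genes were named as the nearest start of the 25 strongest members, the 10 genes nearest to most members, up to 3 per list with the strongest members, and unc-119; others were named after their values were seen, such as the genes of non-coding starts and of missing replicate peaks. The 22 gene lists, the 24 words and the rule for members were chosen with earlier results of these data known. Symbols on the lists that did not match the annotation were left out.

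Alternatives varied the distance limit, the gene starts, the strength of peaks, the replicates, the windows and flanks, the non-coding distance and the gene assignment. Counting overlapping peaks once was added after the data were seen.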

Additional observations from a re-analysis of the deposited data

How the results depend on the processing

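No alternative reversed a result, and TAATCC stayed called higher under all 10 tried for the words, at 10% (window narrowed to 61 bp) to 26.1% (window reaching 100 bp either side). A distance limit of 5000 bp left 226 peaks at 54.97 per Mb next to 166 genes and called 0 words lower. The stronger 50% of peaks left 343 at 32.7 per Mb next to 287 genes, put 5.83% near a piRNA gene, called 0 words lower, and called 36 words of 6 letters higher and 41 lower. Counting either flanking gene gave 817 genes. Leaving out non-coding gene bodies gave 72.0 per Mb and 8.09% near ncRNA genes, and non-coding limits of 1000 and 250 bp gave 16.8% near ncRNA and 4.49% near piRNA genes. Windows of 61 bp called 0 words lower, 54 words of 6 letters higher and 47 lower, and the wider ones called 1 word lower and 167 words of 6 letters higher. Leaving out 1 replicate called 1 or 2 words lower. The share overlapped was 70.7% in replicate 1 and 85.9% in replicate 2 with a reciprocal overlap of 50%, 99.9% and 99.7% with the full lists, and 100% and 99.4% for the stronger 50%. Counting overlapping peaks once left 657. Among single words, 12 values of CACGTG, of CATCTG, of TTTTCAG and of the run of T lost their call, and the cause was not tested. No paired analysis was possible because there is 1 group. Depth is unknown, and nearest starts do not show which gene a peak acts on.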
